A study of Homo sapiens with 12 samples.

Results

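CUEDC1, KLHL14, GPM6A, GGT7, AAK1 and ABAT, 6 of the 78892 genes counted in OCI-Ly7 lymphoma cells, were examined because their response to 5-azacitidine differed with and without an HDAC3 inhibitor. OCI-Ly7 is a human cell line of diffuse large B-cell lymphoma. Poly(A) RNA was sequenced from 4 groups of 3 libraries: vehicle, the inhibitor alone at 15 µM on days 2 and 4, 5-azacitidine alone at 100 nM on each day from day 0 to day 4, and the combination of both schedules, all harvested on day 5. The labels call the inhibitor HDAC3i and do not name the compound, and whether libraries of the same group came from separate cultures is not given, so errors and p-values measure only the spread between libraries, which may be technical.

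HDAC3 removes acetyl groups from histones as the catalytic part of the NCoR and SMRT co-repressor complexes, so its inhibition tends to raise transcripts that these complexes hold down. 5-azacitidine is a cytidine analogue that enters RNA and, after reduction, DNA, where it traps DNA methyltransferases, and methylation of CpG sites is lost as cells divide. A gene shows an interaction when the change with both drugs is not what the single changes predict, and whether it does depends on the prediction: multiplied fold changes, as on a log scale, or added differences, as on a linear scale. The 6 genes share no pathway. CUEDC1 encodes a protein with a ubiquitin-binding CUE domain, and KLHL14 a Kelch-like protein of the kind that brings substrates to the ubiquitin ligase CUL3. GPM6A is a membrane glycoprotein of neurons in the proteolipid protein family, GGT7 is a member of the gamma-glutamyltransferase family, AAK1 is the kinase that phosphorylates the AP-2 adaptor of clathrin coats, and ABAT is the mitochondrial transaminase that breaks down GABA.

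The genes were chosen by the interaction on the log2 scale, which is the log2 change with 5-azacitidine on top of the inhibitor minus the log2 change with 5-azacitidine on vehicle. At an edgeR adjusted p under 0.05, 128 of 17869 tested genes (0.716%) were called for it, 47 higher (0.263%) and 81 lower (0.453%), and this share is the background from which the 6 were picked. Among protein-coding called genes with at least 5 CPM (counts scaled to 1000000 per library) in their highest group, GPM6A, GGT7, AAK1 and ABAT had the 4 largest positive values of 44. CUEDC1 and KLHL14 had the second and the third largest negative values of 70. The values that chose them were −1.45 ± 0.21 (SE) for CUEDC1, −1.40 ± 0.23 for KLHL14, 1.21 ± 0.23 for GPM6A, 0.98 ± 0.24 for GGT7, 0.75 ± 0.18 for AAK1 and 0.71 ± 0.17 for ABAT, and they are given as a description. GGT7, AAK1 and ABAT lay just inside the threshold: they held the last 3 places among the 47 by p, with adjusted p of 0.047, 0.0448 and 0.0446 in edgeR, and the next gene, RDH10, at 0.0501, was outside. Next in size, ARID5A had a value of 0.60. The number of called genes rested on single libraries, from 35 without 5-azacitidine replicate 2 or combination replicate 1 to 689 without combination replicate 2.

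The 12 libraries held 35947872 to 36337086 counts each. Mitochondrially encoded genes took 9.59% to 10.54% of counts in vehicle and 12.14% to 13.02% with the inhibitor. 5-azacitidine replicate 1, at 13.79%, and combination replicate 3, at 15.29%, had the highest shares, and their part in the results is given below by leaving them out. The 5 B-cell markers MS4A1, CD79A, CD79B, PAX5 and CD22 were all present in each group, with a summed level of 2580 to 2670 CPM per library in vehicle, 3450 to 3490 with the inhibitor, 2740 to 2810 with 5-azacitidine and 3500 to 3520 with both. The 5 germinal-centre markers summed to 350 to 359 CPM in vehicle, 290 to 299 with the inhibitor, 336 to 346 with 5-azacitidine and 294 to 308 with both. The sum was lower with the inhibitor, but the markers with a mean of at least 1 CPM numbered 3 in vehicle and 4 in each other group. SERPINA9 stayed under 1 CPM in every library. Of 8 neuronal markers, counted because GPM6A and ABAT are abundant in neurons, SNAP25, STMN2 and NEFL had no counts in any library and 7 stayed under 1 CPM. Their summed level was 0.69 to 1.02 CPM in vehicle, 1.63 to 2.87 with the inhibitor, 0.965 to 1.25 with 5-azacitidine and 2.26 to 3.54 with both. The 6 T and NK cell markers summed to 87.6 to 96.0 CPM in vehicle, 244 to 252 with the inhibitor, 107 to 116 with 5-azacitidine and 238 to 254 with both, while CD8A had no counts and CD3D and KLRD1 stayed under 1 CPM. The 6 monocyte and granulocyte markers summed to 0.859 to 2.15, 2.88 to 3.26, 1.47 to 1.79 and 3.90 to 4.57 CPM in the same order, with S100A8 at 0 everywhere. S100A9, CD14 and MPO also stayed under 1 CPM in every library. Of the 6, 1 had a mean of at least 1 CPM in each group except the combination, where 2 had. The part of these shifts in the results was not tested. In bulk RNA, more RNA per cell and more cells of a kind cannot be told apart.

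The methylation that can be lost after 5-azacitidine traps DNA methyltransferases lies at CpG sites, and it was not measured here. The sequence around the genes' annotated starts is therefore shown where RefSeq promoter windows were given (GRCh38.p14, 250 bases before to 50 after a start). Windows were matched for 4 of the 6 genes, and none was matched for CUEDC1 and KLHL14. The motif counted was CG, which reads the same on both strands. The single GGT7 window held 29 CpG, a number reached by 24.2% of 35116 windows. Both AAK1 windows, whose starts lie 1 base apart, held 34 (15.6% of windows). The outermost ABAT window held 32 (18.9%) and the outermost GPM6A window 18 (44.5%), while the inner windows of these genes held 4 to 13 and 0 to 3. The median over all windows was 14, and gene-level counts do not show which start was used. The stretches below lie outside all counted exons, with CpG in capitals: the gap between the exons of GGT7 and of its neighbour ACSS2 on the other strand, and a CpG-rich and a CpG-poor stretch before starts of ABAT and GPM6A, for comparison.

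GGT7, chr20:34872857-34872881, minus strand, 2 CpG in 25 bases: gccctcccactccccCGcCGcagcc

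ABAT outermost start, chr16:8674367-8674595, plus strand, 21 CpG in 229 bases: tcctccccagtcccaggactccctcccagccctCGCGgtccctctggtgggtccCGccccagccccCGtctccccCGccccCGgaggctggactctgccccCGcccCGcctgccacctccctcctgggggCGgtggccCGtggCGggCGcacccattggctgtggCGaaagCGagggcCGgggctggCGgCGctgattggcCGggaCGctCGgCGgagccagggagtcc

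GPM6A innermost start, chr4:175712571-175712820, minus strand, 2 CpG in 250 bases: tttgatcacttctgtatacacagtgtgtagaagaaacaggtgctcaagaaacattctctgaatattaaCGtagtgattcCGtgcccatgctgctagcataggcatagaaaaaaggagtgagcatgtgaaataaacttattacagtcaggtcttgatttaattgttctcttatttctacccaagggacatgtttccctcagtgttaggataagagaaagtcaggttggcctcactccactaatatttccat

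CUEDC1 (ENSG00000180891, chromosome 17, 57861243 to 57955412, minus strand, GRCh38) was close to silent in vehicle, and each drug went with a higher level. Its libraries read 0.525, 0.692 and 0.582 CPM in vehicle and 2.62, 2.02 and 3.03 CPM with 5-azacitidine. They read 16.8, 17.6 and 17.3 CPM with the inhibitor and 27.3, 24.9 and 27.5 CPM with both. No group overlapped another. The mean was 4.27-fold higher with 5-azacitidine than in vehicle and 28.8-fold higher with the inhibitor, from 65 counts over the 3 vehicle libraries. On top of the inhibitor, 5-azacitidine went with a 1.54-fold higher mean. The fitted log2 changes with 5-azacitidine were 2.08 ± 0.19 (SE) without the inhibitor and 0.63 ± 0.09 with it. The fold change was smaller on the inhibitor, but the difference in level was larger: 1.96 CPM were added to vehicle and 9.33 CPM to the inhibitor group.

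KLHL14 (ENSG00000197705, chromosome 18, 32672673 to 32773023, minus strand), whose product lowers B-cell receptor levels in B cells, was low in vehicle at 0.497, 0.886 and 0.776 CPM. With 5-azacitidine it read 1.90, 1.91 and 1.78 CPM, which did not overlap vehicle. With the inhibitor it read 8.60, 8.45 and 9.88 CPM, and with both drugs 9.16, 8.09 and 8.92 CPM, and these groups overlapped. The mean was 2.59-fold higher with 5-azacitidine than in vehicle and 12.5-fold higher with the inhibitor. On top of the inhibitor the log2 change with 5-azacitidine was −0.03, and 2 SE either side spanned −0.26 to 0.20, against 1.37 ± 0.20 without it. An antisense gene shares 5.80% of the exonic bases of KLHL14. That gene averaged 0.161 CPM, and the counting ignored strand.

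GPM6A (ENSG00000150625, chromosome 4, 175632934 to 176002664, minus strand) was the gene on which the drugs had opposite single effects of over 2-fold. Its vehicle libraries read 2.48, 2.69 and 2.33 CPM, and its 5-azacitidine libraries 0.772, 0.610 and 1.25 CPM. With the inhibitor it read 14.2, 15.2 and 13 CPM, and with both 10.6, 11.1 and 12.6 CPM. All 4 groups stood apart, in the order inhibitor, both, vehicle, 5-azacitidine. The mean was 2.85-fold lower with 5-azacitidine than in vehicle but only 1.24-fold lower with both drugs than with the inhibitor. The log2 changes with 5-azacitidine were −1.51 ± 0.19 (SE) and −0.30 ± 0.11. Over the 3 5-azacitidine libraries the gene had 95 counts, and the interaction read 1.0 without 5-azacitidine replicate 2 (adjusted p = 0.0649 in edgeR) and 1.54 without replicate 3.

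GGT7 (ENSG00000131067, chromosome 20, 34844720 to 34872856, minus strand) belongs to a family of glutathione-handling enzymes. It read 1.49, 1.58 and 1.55 CPM in vehicle and 0.910, 1.14 and 1.28 CPM with 5-azacitidine. It read 4.15, 4.69 and 3.93 CPM with the inhibitor and 6.39, 4.98 and 6.60 CPM with both. No group overlapped another, and the side on which the 5-azacitidine libraries lay changed with the inhibitor: below vehicle without it and above the inhibitor group with it. The mean was 1.39-fold lower with 5-azacitidine than in vehicle and 1.41-fold higher with both drugs than with the inhibitor. The log2 changes were −0.48 ± 0.19 and 0.50 ± 0.14 (SE).

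AAK1 (ENSG00000115977, chromosome 2, 69457997 to 69674349, minus strand) had smaller changes with 5-azacitidine, of opposite sign without and with the inhibitor. It read 4.64, 5.15 and 4.93 CPM in vehicle and 3.42, 3.88 and 3.84 CPM with 5-azacitidine, with no overlap. It read 5.50, 5.14 and 5.73 CPM with the inhibitor and 8.28, 5.64 and 6.71 CPM with both, and these overlapped. Combination replicate 1 was the highest and replicate 2 the lowest. The inhibitor libraries also overlapped vehicle. The log2 changes with 5-azacitidine were −0.41 ± 0.13 without the inhibitor and 0.34 ± 0.12 with it, and neither passed in edgeR (adjusted p = 0.0514 and 0.091). Without combination replicate 1 the interaction of AAK1 was 0.61 (adjusted p = 0.175 in edgeR).

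ABAT (ENSG00000183044, chromosome 16, 8674596 to 8784575, plus strand) read 5.41, 5.76 and 4.43 CPM in vehicle and 3.64, 3.85 and 3.51 CPM with 5-azacitidine, with no overlap. It read 7.08, 7.32 and 7.35 CPM with the inhibitor and 8.47, 7.18 and 9.23 CPM with both, and these overlapped. The mean was 1.42-fold lower with 5-azacitidine than in vehicle and 1.14-fold higher with both drugs than with the inhibitor. The log2 changes were −0.51 ± 0.13 and 0.20 ± 0.11. Of its exonic bases, 1.69% lie in exons of other genes, mostly of TMEM186 on the other strand, and reads over more than 1 gene were not counted.

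**Figure D1:**
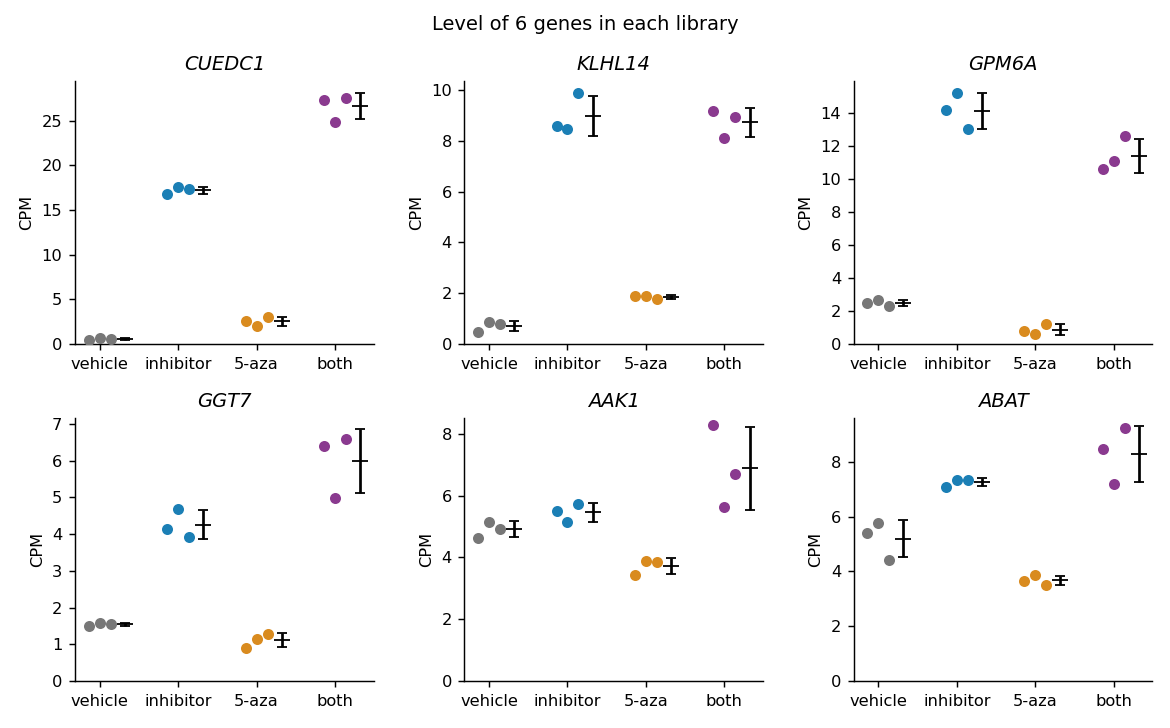
Level in CPM (linear axis from 0) of each of the 6 genes in each library, by group: vehicle, inhibitor, 5-azacitidine (5-aza) and both drugs. Points are libraries, and the bar beside them is the mean ± SD (n = 3); CUEDC1 reaches 24.9 to 27.5 CPM with both drugs, and in AAK1 and ABAT the inhibitor and both-drug groups overlap.

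The 5-azacitidine libraries did not overlap vehicle in any of the 6 genes, as in 24.5% of all tested genes. CUEDC1 and KLHL14 lay above vehicle and the other genes below it. By the edgeR call, 4 of the 6 passed, where 9.06% of genes did (4.31% higher, 4.75% lower), and GGT7 (adjusted p = 0.132) and AAK1 (adjusted p = 0.0514) did not. On the inhibitor, 3 of the 6 did not overlap (CUEDC1 and GGT7 above, GPM6A below), as in 24.8% of genes. There, 2 of the 6 were called, CUEDC1 and GGT7, where 7.34% of genes were (4.51% higher, 2.83% lower). The inhibitor libraries lay above vehicle without overlap in 5 of the 6, as in 30.2% of genes, and the same number was called, where 51.3% of genes were (26.4% higher). AAK1 was the exception to both. The libraries with both drugs lay above 5-azacitidine alone without overlap in all 6, as in 29.4% of genes, and all were called, where 53.8% were (28.7% higher). Against vehicle, the log2 change with both drugs ran from 0.49 ± 0.12 in AAK1 to 5.47 ± 0.14 in CUEDC1, where 57.1% of genes were called (29.6% higher). Because the interaction is made from these same libraries, these separations and calls partly follow from how the genes were chosen, and nothing is read from them.

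**Figure D2:**
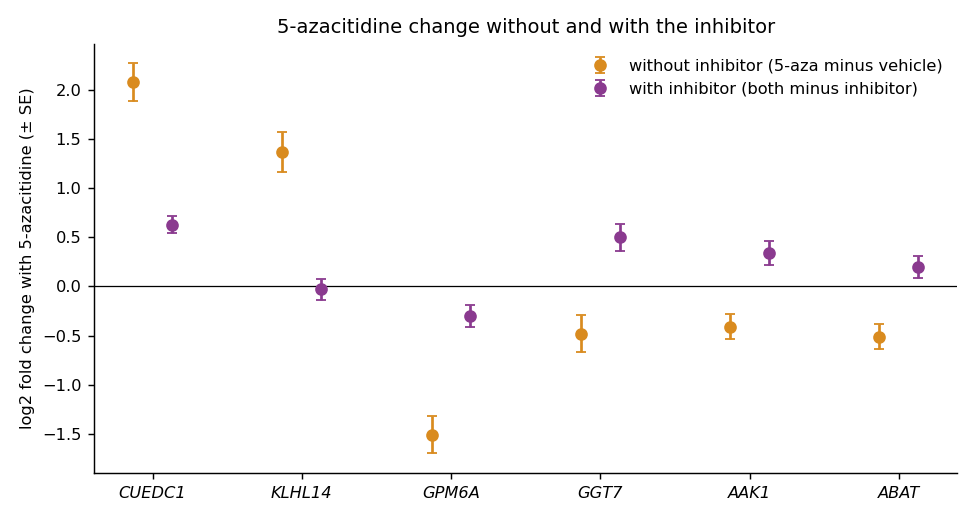
Log2 fold change with 5-azacitidine (± SE) for each gene, without the inhibitor (5-azacitidine minus vehicle) and with it (both drugs minus inhibitor). The pair of points lies on the same side of 0 for CUEDC1 (2.08 and 0.63) and GPM6A (−1.51 and −0.30) and on opposite sides for GGT7, AAK1 and ABAT; the distance within each pair is what chose the genes.

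The level with both drugs was set beside the levels that 2 references give from the single drugs. If fold changes multiplied, CUEDC1 would reach 73.6 ± 10.4 CPM (SE), 2.77 times the measured 26.6 ± 0.836. If differences in CPM added, it would reach 19.2 ± 0.373 CPM, and the measured level was 1.38 times that. CUEDC1 thus lay below the product and above the sum, so the sign of its interaction depends on the scale. For KLHL14 the product was 23.3 ± 3.96 CPM and the sum 10.1 ± 0.469, and the measured 8.72 ± 0.325 lay below both. For GPM6A the product was 4.97 ± 1.13 CPM, and the measured 11.4 ± 0.596 was 2.30 times that, but the sum was 12.5 ± 0.661. The measured value differed from the sum by −1.10 ± 0.89 CPM, so the interaction of GPM6A on the log scale is not seen as a sum.

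GGT7, AAK1 and ABAT lay above both references. GGT7 measured 5.99 ± 0.509 CPM against 3.06 ± 0.343 for the product and 3.83 ± 0.253 for the sum. AAK1 measured 6.88 ± 0.765 CPM against 4.13 ± 0.244 and 4.26 ± 0.271. ABAT measured 8.29 ± 0.596 CPM against 5.11 ± 0.418 and 5.71 ± 0.418. For these genes, which 5-azacitidine alone left below vehicle, the excess over the sum was 2.17 ± 0.569, 2.61 ± 0.812 and 2.58 ± 0.728 CPM. These are descriptions of the contrast that chose the genes.

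**Figure D3:**
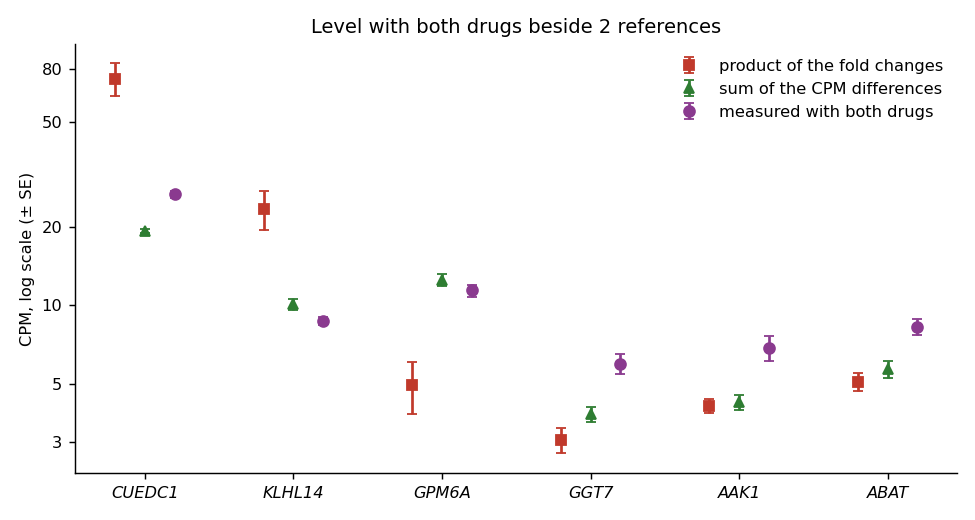
Level with both drugs (circles, measured) beside the level given by multiplying the single fold changes (squares) and by adding the single CPM differences (triangles); CPM on a log axis, ± SE. CUEDC1 lies between its references, KLHL14 below both, GPM6A near the sum, and GGT7, AAK1 and ABAT above both.

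A drug's average effect, the mean of its log2 changes without and with the other drug, can be tested separately from the interaction when the groups are equally precise. The estimates were close to independent, with a correlation of at most 0.12 in size between the errors, for the inhibitor in GGT7, AAK1 and ABAT and for 5-azacitidine in AAK1 and ABAT. In these, the average inhibitor effect was 1.95 ± 0.12 in GGT7 (SE, edgeR adjusted p = 3.95e-14), 0.83 ± 0.09 in ABAT (adjusted p = 2.33e-09) and 0.52 ± 0.09 in AAK1 (adjusted p = 1.26e-05). The AAK1 average joins a change of 0.15 ± 0.13 without 5-azacitidine (adjusted p = 0.347 in edgeR) and of 0.90 ± 0.13 with it. By the average inhibitor effect, 32.9% of all genes were called higher, 30.9% lower and 63.8% in either direction. The choice of genes with at least 5 CPM in their highest group favours genes that the inhibitor raised. AAK1 reached 5 CPM in inhibitor-treated groups alone and GGT7 with both drugs alone. The share is thus not compared, and for GGT7 and AAK1 the p-values are descriptions, since the choice already favoured a higher level with the inhibitor. These inhibitor calls held in all alternative fits that tested each gene (22 for GGT7, 23 each for AAK1 and ABAT), without the libraries of highest mitochondrial share too. The fits reuse the same libraries, so this describes how far processing matters and adds no support for GGT7 and AAK1. The average 5-azacitidine effect passed in neither AAK1 nor ABAT in edgeR. It was −0.03 ± 0.09 for AAK1 (adjusted p = 0.865, 2 SE either side −0.21 to 0.15) and −0.15 ± 0.09 for ABAT (adjusted p = 0.261, −0.32 to 0.02). Of all genes 14.1% were called (7.64% higher, 6.5% lower). These averages join changes of opposite sign, −0.41 and 0.34 in AAK1 and −0.51 and 0.20 in ABAT, so they do not show that 5-azacitidine had no effect. Elsewhere the errors were tied to the interaction, with correlations up to −0.68, and the averages are descriptions. For the inhibitor they were 4.11 ± 0.09 in CUEDC1, 2.93 ± 0.11 in KLHL14 and 3.10 ± 0.10 in GPM6A. For 5-azacitidine they were 1.36 ± 0.10, 0.67 ± 0.11 and −0.90 ± 0.11 in the same genes, and 0.01 ± 0.12 in GGT7.

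Per kb of exonic length, the order of the genes changed with treatment. In vehicle, ABAT (0.536 ± 0.0707 CPM per kb, SD, n = 3) and GGT7 (0.520 ± 0.0152) were highest and did not differ beyond their spread. GPM6A (0.381 ± 0.0274), AAK1 (0.198 ± 0.0104), KLHL14 (0.145 ± 0.0405) and CUEDC1 (0.106 ± 0.0151) followed, and the last pair did not differ beyond their spread. With both drugs CUEDC1 was highest at 4.69 ± 0.255 CPM per kb. GGT7 (2.02 ± 0.298), KLHL14 (1.76 ± 0.114) and GPM6A (1.74 ± 0.158) followed within their spread of each other, ahead of ABAT (0.854 ± 0.106) and AAK1 (0.277 ± 0.0533). CUEDC1 was thus among the lowest pair in vehicle and the highest with both drugs.

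The genes next to the 6 on the chromosome were not chosen by their values. Of 15 tested protein-coding genes that were nearest on either side or overlapped, none was called for the interaction in edgeR, DESeq2 or limma voom. None had an unadjusted edgeR p under 0.05. Over all genes 0.716% were called in edgeR and 12.7% had an unadjusted p under 0.05. At such shares 15 genes are too few for a count of none to be read as a result. For CUEDC1, MRPS23 lies 11.2 kb away with an interaction of 0.04 ± 0.09 (SE) and VEZF1 16.1 kb away with −0.19 ± 0.09. ACSS2, an acetyl-CoA synthetase gene on the other strand, has an exon that begins beyond the 25-base gap printed above, and another of its exons lies within the GGT7 span. ACSS2 read 3.98 ± 0.773 CPM (SD, n = 3) in vehicle, 4.11 ± 0.142 with 5-azacitidine, 5.20 ± 0.171 with the inhibitor and 6.59 ± 0.396 with both. Its interaction was 0.31 ± 0.18 (adjusted p = 0.501 in edgeR), with log2 changes with 5-azacitidine of 0.04 ± 0.13 and 0.35 ± 0.12. On the other side of GGT7, GSS, which encodes glutathione synthetase, read −0.02 ± 0.08 and NCOA6 lies nearest at 0.13 ± 0.13.

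The other neighbours differed in how well they were measured. Beside ABAT, PMM2 (4.2 kb away, −0.06 ± 0.09), METTL22 (0.14 ± 0.12) and the overlapping TMEM186 (0.02 ± 0.10) had narrow errors, as had NFU1 (0.02 ± 0.11) and GMCL1 (−0.08 ± 0.09) beside AAK1. ANXA4, an annexin gene that overlaps AAK1 on the other strand, had an interaction of 0.06 ± 0.38. Around KLHL14 and GPM6A the nearest tested genes were far off or low: GAREM1 (201.8 kb, −0.22 ± 0.50), ASXL3 (805.2 kb, −0.05 ± 0.46), ADAM29 (654.8 kb, 0.10 ± 0.46) and WDR17 (63.2 kb, −0.11 ± 0.40). These errors are wide, but 2 SE either side did not reach the −1.40 of KLHL14 or the 1.21 of GPM6A in any of these neighbours. Smaller interactions in them cannot be told from 0. The inhibitor's average effect passed the edgeR test in 11 of the 15 neighbours, with 7 higher and 4 lower, near the 63.8% of all genes. Among them were ANXA4 at 2.23 ± 0.18 (adjusted p = 1.36e-11), ADAM29 at 1.5 ± 0.22 (adjusted p = 1.25e-06) and NCOA6 at −0.39 ± 0.07 (adjusted p = 9.84e-06). For the average 5-azacitidine effect 1 of 15 passed, where 14.1% of genes did: VEZF1 at 0.15 ± 0.05 (adjusted p = 0.0323).

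**Figure D4:**
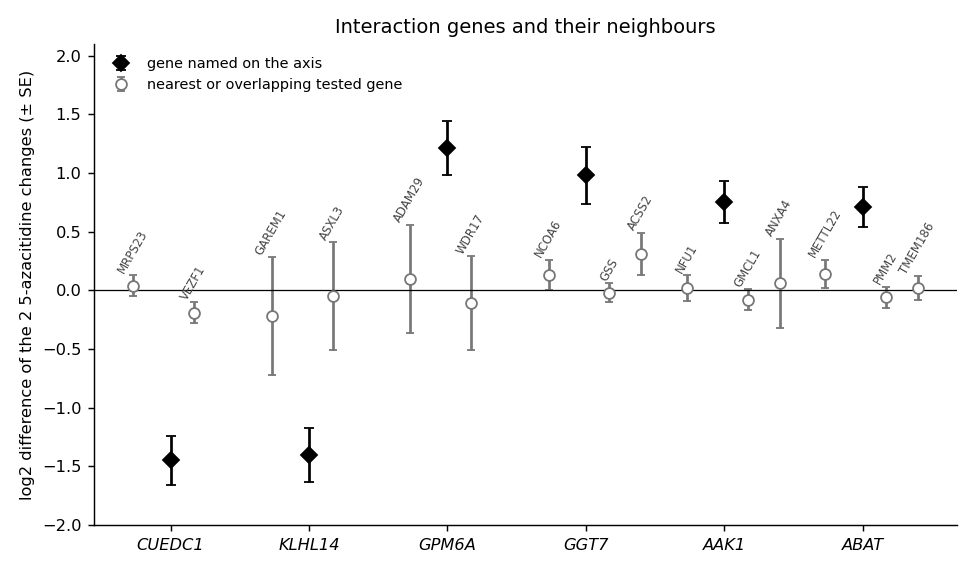
Log2 interaction (± SE) of the 6 genes (diamonds) and of the nearest tested protein-coding gene on each side or overlapping them (open circles, named). The diamonds were chosen for their distance from 0; the neighbours lie between −0.22 and 0.31, with wide errors around KLHL14 and GPM6A.

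Relatives of the 6 genes, without the 6 themselves, were counted in the same fit, in which 32.9% of all genes rose and 30.9% fell with the inhibitor and 7.64% rose and 6.5% fell with 5-azacitidine. Of 28 tested genes among CUL3, RBX1, KEAP1 and the Kelch-like family, 9 rose and 13 fell with the inhibitor (average effect; median −0.02, 0.01 over all genes), and 2 rose and 4 fell with 5-azacitidine. KLHL29 rose by 3.59 ± 0.21 (adjusted p = 3.75e-14 in edgeR) and KLHL15, an adaptor of the CUL3 ligase, fell by 0.78 (adjusted p = 8.01e-12). KLHL6, a B-cell Kelch-like gene, was the relative called for the interaction, with 0.33 ± 0.07 (adjusted p = 0.0242), opposite in sign to KLHL14. Its mean level was 270.0 CPM, and its log2 changes with 5-azacitidine were −0.13 ± 0.05 without and 0.21 ± 0.05 with the inhibitor. Of 16 genes of B-cell receptor signalling, 10 rose and 3 fell with the inhibitor (median 0.13) and 3 rose and 2 fell with 5-azacitidine. PRKCB, the protein kinase C that links the receptor to NF-kB, rose by 1.45 ± 0.04 with the inhibitor (adjusted p = 7.71e-22), and PTPN6, the phosphatase SHP-1 that dampens the receptor, by 0.65 ± 0.04 (adjusted p = 9.22e-15). With 5-azacitidine PTPN6 rose by 0.24 ± 0.04 (adjusted p = 2.58e-05) and PRKCB fell by 0.15 (adjusted p = 0.00546).

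Of 28 tested genes of AP-2, clathrin, endocytic accessory proteins and kinases related to AAK1, 12 rose and 8 fell with the inhibitor (median 0.03; 63.8% of all genes called) and 1 rose and 6 fell with 5-azacitidine (14.1% of all genes called). HIP1, an adaptor between clathrin and actin, rose by 0.93 ± 0.06 (adjusted p = 3.71e-14 in edgeR) and its relative HIP1R by 0.48 ± 0.04 (adjusted p = 5.81e-11) with the inhibitor. Of 16 tested genes of gamma-glutamyl transfer and glutathione, 3 rose and 9 fell with the inhibitor (median −0.14) and 2 rose and 1 fell with 5-azacitidine. CHAC1, which breaks down glutathione, rose by 0.45 ± 0.06 with the inhibitor (adjusted p = 1.25e-07) and fell by 0.35 with 5-azacitidine (adjusted p = 0.000102). The aminopeptidase gene LAP3 fell by 0.29 with the inhibitor (adjusted p = 5.17e-08).

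Of 13 tested genes of GABA metabolism, transport and receptors, 3 rose and 5 fell with the inhibitor (median −0.02), close to the 63.8% of all genes called, and 1 rose and 2 fell with 5-azacitidine (14.1% of all genes). ALDH5A1, the enzyme after ABAT in GABA breakdown, fell by 0.45 (adjusted p = 3.32e-12 in edgeR), while ABAT rose. GABBR1, a subunit of the GABA-B receptor, rose by 1.30 ± 0.07 (adjusted p = 7.82e-15). Of 8 CUE-domain genes, 1 rose, TAB2 (0.24 ± 0.04), and 3 fell with the inhibitor, with SMARCAD1, a chromatin remodeller, at −0.51 ± 0.04. GPM6B, a relative of GPM6A, averaged 0.938 CPM and did not pass for the inhibitor (−0.05 ± 0.20, adjusted p = 0.823) or for 5-azacitidine (0.40 ± 0.20, adjusted p = 0.185). None of the 8 CUE-domain genes was called for 5-azacitidine in edgeR, DESeq2 or limma voom, and 1 had an unadjusted p under 0.05.

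For the interaction, none of these relatives other than KLHL6 was called in edgeR, where 0.716% of genes were. At that share, 1 call over these lists is too few to be read as a result. At an unadjusted p under 0.05, where 12.7% of all genes lay, there were 1 of 8 CUE-domain genes, 5 of 28 Kelch-like and CUL3 genes, 2 of 16 receptor signalling genes, 3 of 16 glutathione genes, 7 of 28 endocytic genes and 1 of 13 GABA genes. DESeq2 called 1 CUE-domain, 2 Kelch-like, 1 glutathione, 1 endocytic and 1 GABA gene, and limma voom 1 Kelch-like and 1 endocytic gene. Over all genes DESeq2 called 379 and limma voom 119 for the interaction, where edgeR called 128 of 17869.

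The genes whose profiles were most like each of the 6 were found from log2 CPM centred on each gene's own mean, as the root mean square difference over the 12 libraries among 10919 protein-coding genes of at least 1 CPM. For ABAT they were STARD9 (0.087), the ubiquitin ligase gene NEDD4L (0.127) and HIP1 (0.130), where the median gene was at 0.53. For AAK1 they were USP35 (0.136), DAB2IP (0.138) and SRXN1 (0.139), against a median of 0.40. For GGT7 they were RBMS2 (0.200), SH2D5 (0.213) and TMEM63C (0.214), against 1.03. For CUEDC1 the nearest was FGR, which encodes a tyrosine kinase of the SRC family (0.220), then the formyl peptide receptor gene FPR1 (0.333) and FCRL3 (0.351), against 2.20. For KLHL14 they were FCMR (0.258), the nuclear body gene SP140 (0.271) and MAP7 (0.300), against 1.57. For GPM6A they were ATP7B (0.350), ATF3 (0.497) and SHOX2 (0.499), against 1.68. Of these 18 genes FGR (−1.37), SP140 (−0.70) and STARD9 (0.56) were called for the interaction in edgeR, with adjusted p of 2.1e-06, 0.000437 and 0.0348. Since the 18 were picked for their likeness over the same libraries to genes chosen by the interaction, these calls follow in part from that choice.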

How the data were processed

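The deposited values are expected counts per gene. Sequence over exons was counted with featureCounts 2.1.1, per the file headers, on the release 114 GRCh38 annotation without strand, with multi-mapping reads split into fractions. The command leaves unclear if single reads or read pairs were the unit counted, and the counts quoted carry that doubt. Per the submitters' processing notes, STAR 2.7.11b and cutadapt 5.1 came before. Counts were rounded (96.9% were whole within 1e-06) and fitted in R 4.3.3 with edgeR 4.0.16 over all 12 libraries: filterByExpr (17869 genes kept), TMM scaling, 1 mean per group, quasi-likelihood F-tests, two-sided, Benjamini-Hochberg over all genes, called under 0.05. The SE is the log2 change divided by the root of F. CPM used library totals. Correlations between errors came from fitted means and dispersions, and the limit of 0.15 in size under which an average effect is quoted with its test was chosen after seeing the data. On simulated interactions of 1.25-fold, 1.5-fold, 2-fold and 4-fold among 17869 genes, edgeR recovered 10%, 48%, 74% and 84%, with 10 false of 118 calls. The simulation gave each gene the same level in all other groups and raised the combination alone. Recovery for genes that were near silent in vehicle and changed with single drugs was not tested. Symbols matched 61461 of 78892 genes, and protein-coding status is from GENCODE 29. Genes named are the 6, their neighbours, the 3 nearest profiles, the 2 relatives per list of smallest adjusted p and any relative called for the interaction. The overlapping genes ACSS2, ANXA4 and TMEM186 were added to the neighbours once gene positions were known, and RDH10 and ARID5A were named after their values were seen, as those next to the 6. The genes and lists were chosen with earlier results of these data known, and the tests and alternatives were set with them. Alternatives used DESeq2 1.42.0 and limma 3.58.1. The header lists 16 libraries, and 4 were not analysed here. A B-cell marker and a relative of the 6 are not reported here and are left out of the lists' counts.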

Additional observations from a re-analysis of the deposited data

Results flagged for a closer look

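The change with 5-azacitidine differed between cells with and without the inhibitor for each of the 6 genes, which were chosen for that: the log2 differences were −1.45 for CUEDC1, −1.40 for KLHL14, 1.21 for GPM6A, 0.98 for GGT7, 0.75 for AAK1 and 0.71 for ABAT. Among relatives, KLHL6 differed in the same test by 0.33. It was the 1 relative called in edgeR over all lists, where 0.716% of all genes were called, and nothing is read from that call.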

How the results depend on the processing

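The average inhibitor effects of GGT7, AAK1 and ABAT kept direction and call in every alternative that tested them, and a filter of 5 CPM in at least 3 libraries removed GGT7. For GGT7 and AAK1 this is a description, since the choice of genes already favoured a higher level with the inhibitor. The average 5-azacitidine effects of AAK1 and GGT7, near 0 and not called, changed sign: AAK1 read 0.02 with a replicate block by library-name number, and without single libraries AAK1 ran from −0.10 to 0.02 and GGT7 from −0.04 to 0.07. On the scale of added CPM differences, the interaction of CUEDC1 had the opposite sign (7.37 ± 0.915 CPM, SE), and that of GPM6A was −1.10 ± 0.89 CPM, within 2 SE of 0. The interaction kept its sign on the log2 scale throughout, but its adjusted p was under 0.05 in 7 of 22 alternatives for GGT7, 7 of 23 for AAK1, 9 of 23 for ABAT and 22 of 23 for GPM6A, against 23 of 23 for CUEDC1 and KLHL14. These fits reuse the libraries and the contrast that chose the genes, so the counts describe dependence on processing and are not support for any gene. Without both 5-azacitidine replicate 1 and combination replicate 3 the interaction was 0.79 for GGT7 (adjusted p = 0.157 in edgeR), 0.72 for AAK1 (0.103) and 0.63 for ABAT (0.115). Genes called for the interaction numbered 128, but 314 with no filter, 204 with the stricter filter, 379 in DESeq2, 227 with the library-name block and 35 to 689 without single libraries. Leaving out any library except vehicle replicate 2 moved that count by over 1.5 times. With library totals only, 24 were higher and 77 lower, against 47 and 81. The average inhibitor effect called 11405 genes, and 7545 with the stricter filter, which tests fewer. Without single libraries it called 11072 to 11505, and the average 5-azacitidine effect 1953 to 2771. The cause of the other shifts was not tested. No pairing by number was seen. Over 18 pairs with the same title number in different groups, deviations from group means correlated at −0.059 to 0.067, against −0.068 to 0.06 over 36 pairs with other numbers. Over 13 pairs with the same library-name number they correlated at −0.034 to 0.067. Whether libraries shared cultures cannot be told from these values. The title-number block gave 134 interaction calls. Low counts limit CUEDC1 and KLHL14 in vehicle (65 and 78 counts over 3 libraries) and GPM6A with 5-azacitidine (95).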
